A study of Mus musculus with 8 samples.

Results

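The genes described here are 4 ligands and 4 receptors of the fibroblast growth factor (FGF) family, 8 of the 32285 genes listed in the count matrices. The ligands were Fgf2, Fgf7, Fgf10 and Fgf18. The receptors were Fgfr1, Fgfr2, Fgfr3 and Fgfrl1. They were chosen by name, with earlier results of these data known but by no threshold on a measured value, and their unique molecular identifiers (UMIs, 1 per captured RNA molecule) were counted in every barcode with over 500 and under 8000 genes and a mitochondrial share of UMIs below 20%. In the mouse genome (GRCm38, RefSeq gene models) Fgf2 is at chr3:37348477-37410106, Fgf7 at chr2:126034658-126091185, Fgf10 at chr13:118714699-118792573 and Fgf18 at chr11:33116970-33147400. Fgfr1 is at chr8:25518759-25575718, Fgfr2 at chr7:130162451-130266808, Fgfr3 at chr5:33721724-33737068 and Fgfrl1 at chr5:108694229-108706950.

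FGFs are secreted proteins that bind receptor tyrosine kinases together with heparan sulfate chains, and the receptors signal through the adaptor FRS2 to the RAS-MAPK, PI3K and PLCγ pathways. Bone-forming cells and cartilage both respond to them. FGF18 is known for limiting chondrocyte proliferation through FGFR3 and for its part in bone formation, FGF2 is stored in the extracellular matrix, and FGF7 and FGF10 act mainly on the epithelial splice form of FGFR2. FGFR1 and FGFR2 are the receptors best known from osteoprogenitors and osteoblasts, activating mutations of FGFR3 cause short-limbed dwarfism, and FGFRL1 binds FGFs but has no tyrosine kinase domain.

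The periosteal cells came from left femurs and tibias of male C57BL/6J mice, 16 weeks old, that received normal diet chow (ND) or high fat diet chow (HFD). The labels list 4 mice per diet, but the cells of a diet were deposited as 1 matrix without a record of the mouse, so each diet was 1 library. A difference between diets is therefore a difference between 2 libraries, it carries no p-value, and all intervals are exact 95% intervals for counting error only. Collagenase and dispase freed the cells, which were captured in droplets with 3′ chemistry, which reads the end of a transcript and does not tell the receptor splice forms apart.

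The filter kept 6029 of 6314 ND barcodes and 6224 of 6636 HFD barcodes, with medians of 4610 and 4823.5 UMIs per cell. Across the kept cells the 8 genes gave between 51 UMIs (Fgf10) and 3258 UMIs (Fgfr1) over both libraries. Fgf10 was too sparse for most comparisons, and the other genes were too sparse in some classes or subclusters. Clustering without the FGF family genes gave 27 clusters, which markers assigned to 11 cell classes and 1 unnamed cluster. The mesenchymal-like class, defined by Pdgfra, Col1a1, Dcn and 7 further markers, held 410 ND and 668 HFD cells with medians of 10653 and 9526 UMIs. RNA of other cells was present there: the 10 neutrophil markers were all detected in both libraries and summed to 18014 UMIs per 1000000 UMIs (UPM) in ND and 8295 in HFD, against 693 and 644 for the 8 B cell markers and 120 and 39.0 for the 9 macrophage/monocyte markers. The endothelial list summed to 8.56 and 7.91 UPM, with Tie1 at 0 in both libraries. The libraries shared 14 barcode sequences among the kept cells.

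All 4 ligands were found mostly in mesenchymal-like cells. Over both libraries this class held 97.6% of the Fgf7 UMIs, 97.2% of the Fgf18 UMIs, 96.1% of the Fgf10 UMIs and 89.3% of the Fgf2 UMIs of all kept cells. The receptors were spread more widely. The mesenchymal-like share was 95.7% for Fgfr2, 83.3% for Fgfr3, 78.9% for Fgfrl1 and 74.6% for Fgfr1.

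Levels of the 8 genes were expressed in UPM of the class. The B cell-like class was taken as a reference for the level that free RNA can give. A single class cannot give that level for all others. The mesenchymal marker Dcn stood at 0.108% and 0.228% of its mesenchymal-like level in B cell-like cells. In neutrophil-like cells it stood at 0.463% and 0.594%. Each of the 8 genes had 0 to 6 UMIs in 1515 ND B cell-like cells and 0 to 9 UMIs in 1474 HFD B cell-like cells. The highest of these levels was that of Fgfrl1, at 0.783 UPM in ND and 1.19 in HFD. This was 3.15% and 4.14% of its mesenchymal-like level, a larger share than that of Dcn. None of the 8 genes had a UMI in more than 0.475% of B cell-like cells in either library. Fgfr1 had a UMI in 0.132% of ND and 0.271% of HFD B cell-like cells, and in 80.5% and 75.9% of mesenchymal-like cells. B cell-like cells were shallower (medians of 3891 and 3821.5 UMIs). After every cell was thinned to 1000 UMIs, which left out 5 HFD mesenchymal-like cells and 1 ND and 2 HFD B cell-like cells, Fgfr1 was seen in 17.3% and 18.9% of mesenchymal-like cells and in 0 of 1514 and 0 of 1472 B cell-like cells.

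**Figure D1:**
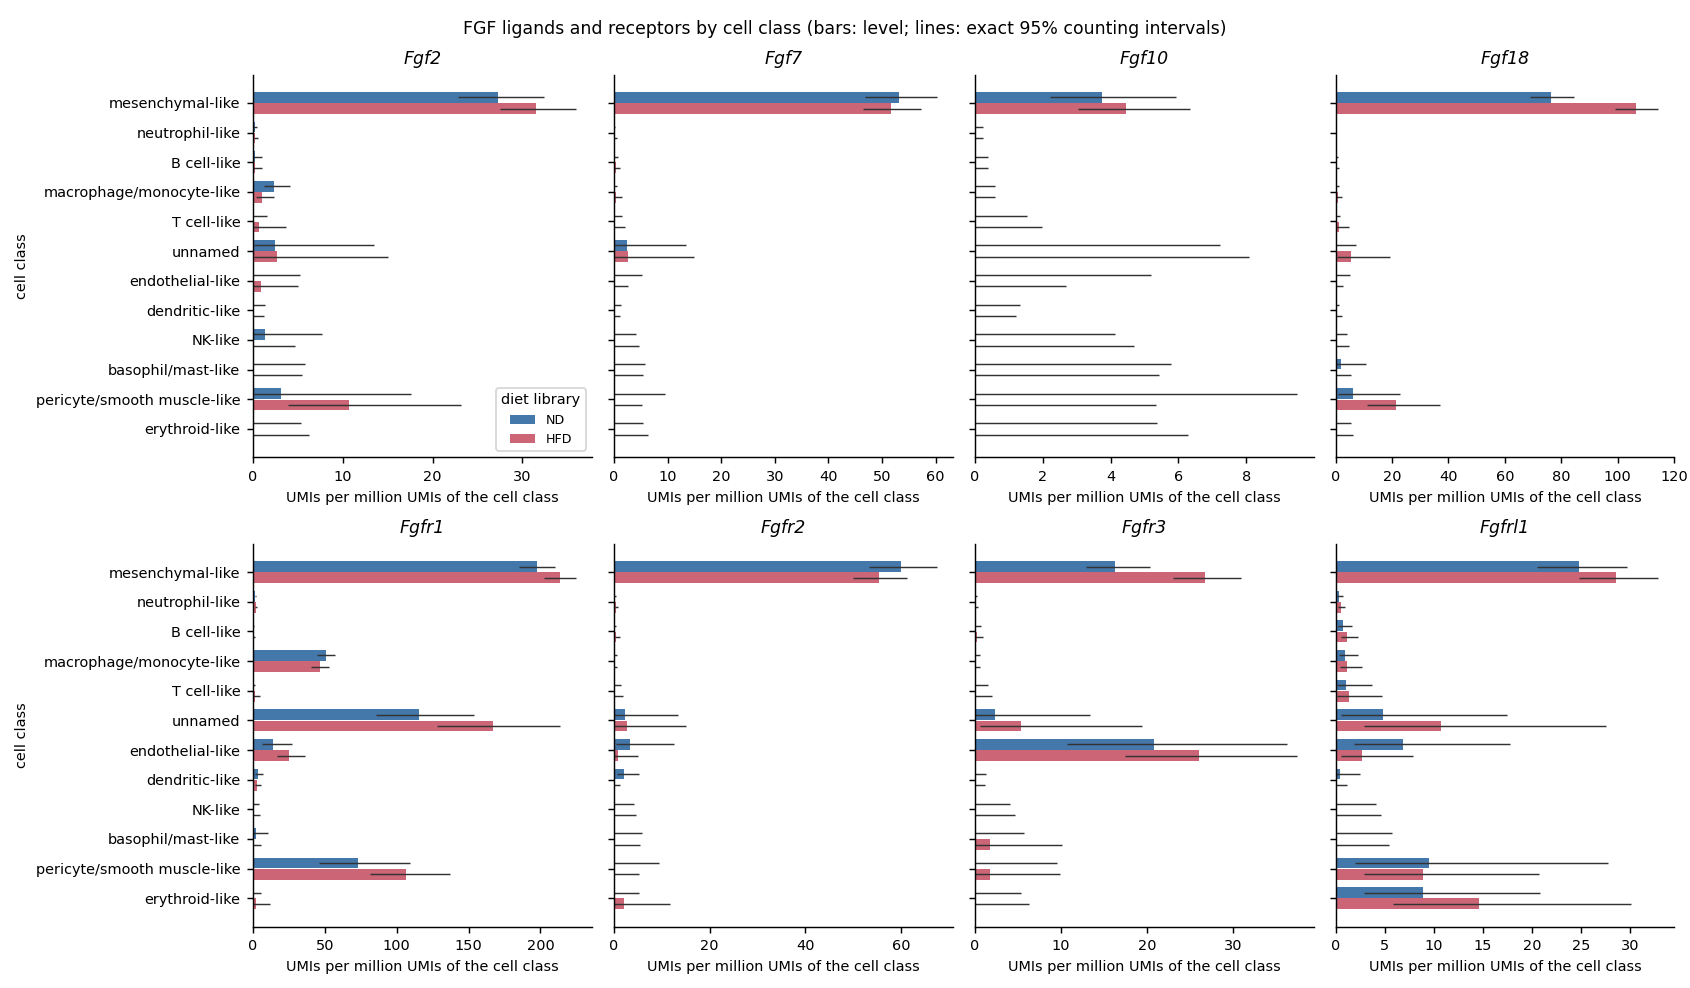
Levels of the 8 genes (x axis, UMIs per 1000000 UMIs of the class, UPM; each panel has its own scale) in the 11 cell classes and the unnamed cluster (y axis) of the ND library (blue) and the HFD library (red). Bars are levels and lines exact 95% counting intervals, which reach 3 counts where no UMI was seen. Fgfr1 also stood at 50.6 and 46.3 UPM in macrophage/monocyte-like cells and Fgfr3 at 20.8 and 26.1 in endothelial-like cells, while the ligands stood near 0 outside mesenchymal-like and pericyte/smooth muscle-like cells.

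Outside mesenchymal-like cells, the widest distribution was that of Fgfr1. Macrophage/monocyte-like cells held 260 Fgfr1 UMIs in ND (50.6 UPM) and 228 in HFD (46.3), which was 25.7% and 21.7% of the mesenchymal-like level. Col1a1, a collagen gene of mesenchymal cells, stood at 0.110% and 0.228% of its mesenchymal-like level in the same cells. All but 1 of the Fgfr1 UMIs of this class came from a single cluster. The cluster led by C1qa, C1qb, Pf4 and Lyve1, genes known from resident tissue macrophages, had 259 UMIs in 172 ND cells and 228 UMIs in 165 HFD cells, or 128 (interval 113 to 145) and 119 (104 to 135) UPM. Of its cells, 47.7% and 44.8% had an Fgfr1 UMI, and 13.5% and 8.48% after thinning, at median depths of 10121 and 10468 UMIs. Of the cells of this cluster in both libraries, 25.8% had doublet scores in the top 5% of their library, and without such cells the Fgfr1 level of the macrophage/monocyte-like class was 53.3 UPM in ND and 47.7 in HFD. The cluster led by Ms4a6c, Lyz2 and Ccr2, genes of monocytes, had 1 Fgfr1 UMI in 199 ND cells and 0 in 274 HFD cells, which allows up to 1.12 UPM there. The third cluster of the class, led by Ccl2 and Wfdc17, had none in 112 ND and 36 HFD cells.

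Pericyte/smooth muscle-like cells, which wrap small vessels, held 23 Fgfr1 UMIs in 31 ND cells (72.9 UPM) and 60 in 59 HFD cells (106), with intervals of 46.2 to 109 and 81.3 to 137. Col1a1 stood there at 1.86% and 0.941% of its mesenchymal-like level. Of the ligands, Fgf18 had 2 and 12 UMIs in these cells. Fgf1, a ligand of the wider family that binds all FGF receptors, had 31 UMIs in ND (98.2 UPM) and 69 in HFD (122) in pericyte/smooth muscle-like cells, against 9.60 and 10.8 UPM in mesenchymal-like cells. The unnamed cluster, shallow at medians of 1352 and 1566 UMIs and assigned to no class by its markers, had Fgfr1 at 116 and 167 UPM.

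Fgfr3 had a second site in endothelial-like cells. These held 12 UMIs in 117 ND cells and 29 UMIs in 231 HFD cells, or 20.8 (10.7 to 36.3) and 26.1 (17.5 to 37.5) UPM, and 12.9% of all Fgfr3 UMIs. A UMI was found in 9.40% and 11.3% of endothelial-like cells and, after thinning, in 3.54% and 1.79%. Fgfr1 stood at 13.9 and 25.2 UPM in the same cells. Fgfrl1 had 5 and 7 UMIs in 33 and 26 erythroid-like cells, 8.93 and 14.6 UPM with intervals of 2.90 to 20.8 and 5.88 to 30.2. Neutrophil-like cells, the most numerous class, had 38 and 49 Fgfr1 UMIs, or 1.64 and 2.20 UPM.

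Mesenchymal-like cells were clustered again, also without the FGF family genes, which gave 9 subclusters. A subcluster with high Ccl11, a chemokine gene of fibroblasts, held 97 ND and 165 HFD cells. The Pi16-high subcluster, named for a marker of adventitial fibroblasts, held 92 and 106 cells. The osteogenic subcluster held 57 and 128 cells, expressed all 7 of the listed markers of Postn-high osteogenic cells and was led by Ibsp, Mmp13 and Bglap, genes of bone-forming cells. A subcluster led by H19, Mfap4, Nppc, Ostn and Wnt16 held 87 and 122 cells. It is called Mfap4-high here because its markers gave no single cell type: it had the tendon markers Tnmd, Scx and Mkx, and also the osteoblast gene Bglap in 34.5% and 33.6% of its cells. Small subclusters were Tnmd-high (8 and 35 cells, tenocyte-like), Col2a1-high (8 and 15, chondrocyte-like) and Prg4-high (7 and 16). Of the Prg4-high cells 71.4% in ND and 56.3% in HFD had doublet scores in the top 5% of their library. Of the others, a shallow Ccl11 subcluster (20 and 51 cells) had medians of 2093 and 2004 UMIs. In the neutrophil-RNA subcluster (34 and 30 cells) the neutrophil gene S100a8 stood at 41157 and 33363 UPM, and 58.8% and 56.7% of the cells had such doublet scores.

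**Figure D2:**
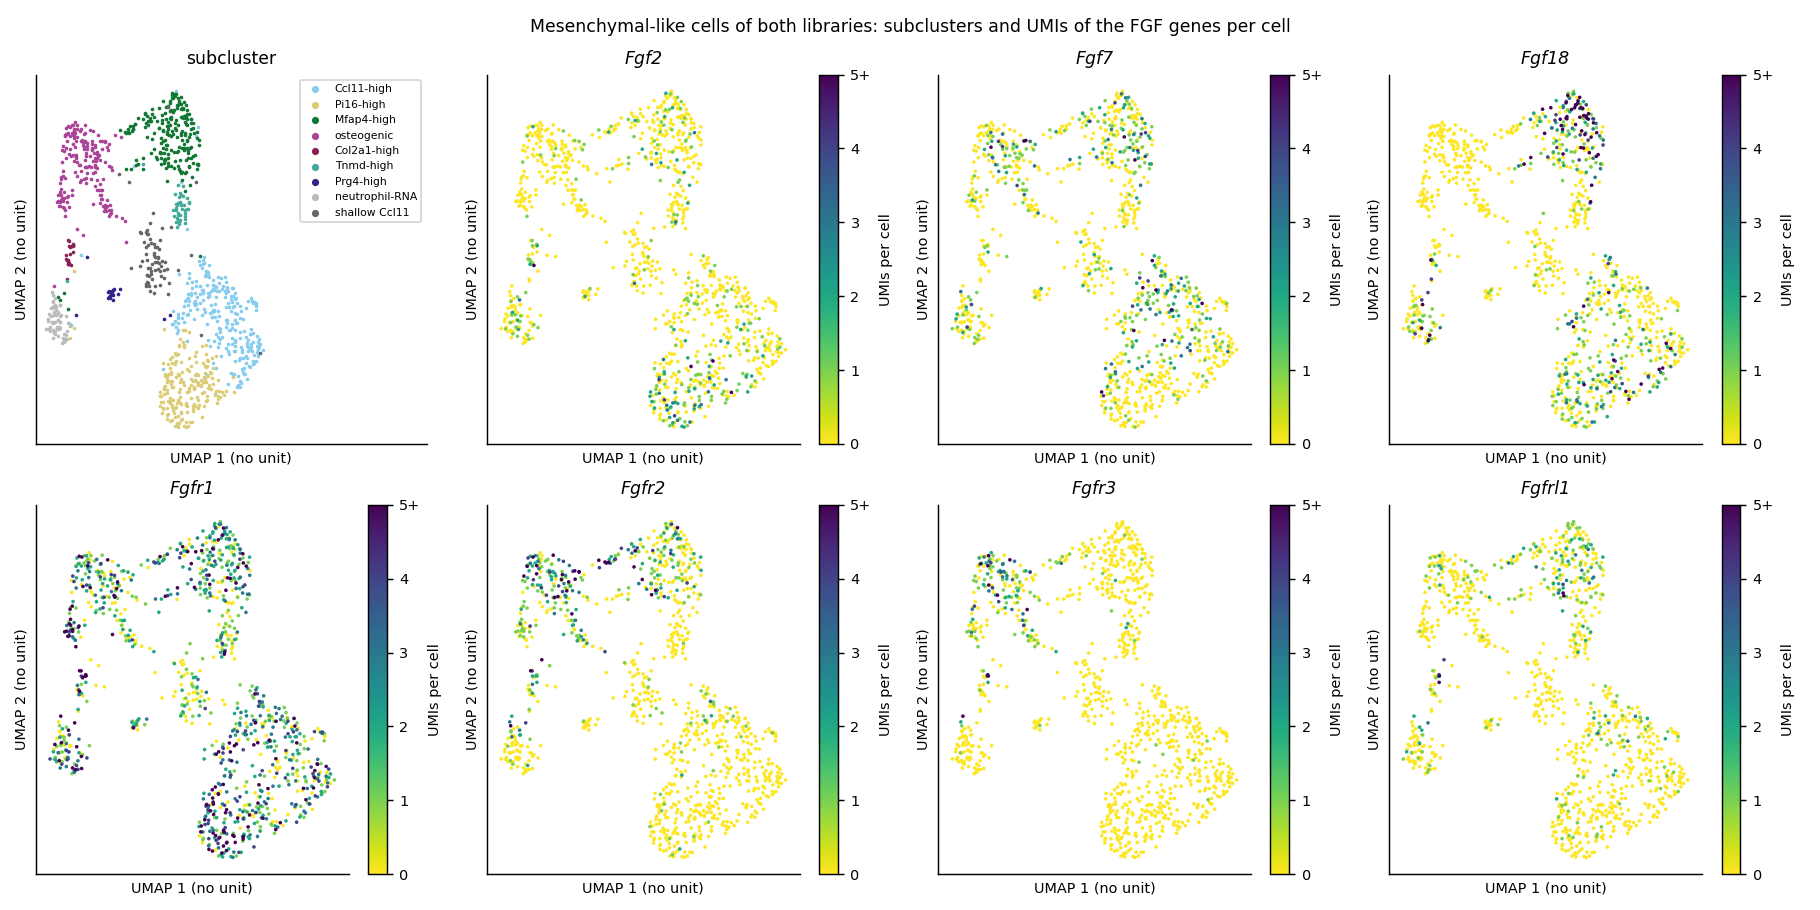
Mesenchymal-like cells of both libraries (410 ND and 668 HFD cells) on the same 2 axes of a UMAP projection, which have no unit; each point is a cell. The first panel is coloured by subcluster, the others by UMIs of 1 gene per cell, with 5 and more in the darkest colour. Fgf18 lies mostly in the Mfap4-high cells and in none of the osteogenic cells, Fgfr3 mostly in the osteogenic cells, and Fgfr1 in nearly every subcluster.

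The ligands differed in their distribution over these subclusters. Fgf18 was concentrated in Mfap4-high cells, which held 52.5% of its UMIs in all kept cells, with 171 UMIs in ND (174 UPM, 149 to 202) and 427 in HFD (326, 296 to 358). Pi16-high cells followed in HFD, with 64 UMIs (53.9 UPM) in ND and 135 (108) in HFD, and Ccl11-high cells had 70 (64.2) and 106 (60.4). In ND the intervals of Pi16-high and Ccl11-high cells overlapped, while in HFD they did not (90.3 to 127 against 49.5 to 73.1). In osteogenic cells no Fgf18 UMI was found, in 0 of 57 ND and 0 of 128 HFD cells. That allows up to 6.06 and 2.72 UPM, or a UMI in up to 5.26% and 2.34% of the cells, against 59.8% and 65.6% of Mfap4-high cells. Within the Mfap4-high subcluster the 5 cells with the most Fgf18 carried 31.0% and 29.0% of its UMIs, and the highest cells had 15 and 36. After thinning, 9.20% and 23.0% of Mfap4-high cells had an Fgf18 UMI.

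Fgf2 was highest in Pi16-high cells among the 4 larger subclusters, with 57 UMIs in ND (48.0 UPM, 36.3 to 62.2) and 96 in HFD (76.6, 62.0 to 93.5), and these cells held 39.0% of its UMIs. Mfap4-high cells stood at 32.5 and 25.2 UPM, Ccl11-high cells at 16.5 and 24.5, and osteogenic cells at 12.1 and 8.16. The ND intervals of Pi16-high and Mfap4-high cells overlapped (22.2 to 45.9 in the latter), and the HFD intervals did not. Nudt6 lies on the opposite strand over the end of Fgf2, and whether the counting used strand is not given in the sources used, so that reads of the overlap could count for either gene. The same holds for Fgf7, which lies within Fam227b, and for Fgfr1, which overlaps Gm16159.

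Fgf7, a paracrine factor of mesenchymal cells, had a broader distribution. Ccl11-high cells held 100 UMIs in ND (91.8 UPM) and 121 in HFD (69.0), and 35.1% of its UMIs. Mfap4-high cells followed at 67.1 and 72.5 UPM, osteogenic cells at 50.5 and 74.4, and Pi16-high cells at 28.6 and 25.5. In HFD the first 3 of these were not separated by their intervals, and Pi16-high cells stood below them. Fgf10, closely related to Fgf7, had 8 and 19 UMIs in Ccl11-high cells (7.34 and 10.8 UPM), 52.9% of its 51 UMIs, and 0 in osteogenic cells of both libraries.

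Among the receptors, Fgfr1 varied least. Its level was 188 and 206 UPM in Ccl11-high cells, 196 and 210 in Mfap4-high cells, 237 and 238 in Pi16-high cells, and 238 and 288 in osteogenic cells. The ND intervals of these 4 subclusters overlapped. In HFD the osteogenic interval (257 to 321) lay above those of the Ccl11-high (186 to 229) and Mfap4-high (186 to 236) cells.

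Fgfr2 lay mainly in 2 subclusters. Osteogenic cells held 123 UMIs in ND (249 UPM, 207 to 297) and 215 in HFD (195, 170 to 223), or 48.1% of its UMIs in all kept cells, and Mfap4-high cells held 117 (119, 98.3 to 142) and 123 (93.9, 78.0 to 112), or 34.1%. Ccl11-high cells stood at 8.26 and 9.69 UPM and Pi16-high cells at 4.21 and 5.58. The small Col2a1-high subcluster had 16 UMIs in 8 ND cells (151 UPM, 86.3 to 245) and 10 in 15 HFD cells (32.0, 15.3 to 58.9). An Fgfr2 UMI was present in 80.7% and 67.2% of osteogenic cells, and in 22.8% and 21.4% after thinning of 57 and 126 cells.

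Fgfr3 was largely a gene of the osteogenic cells, with 68 UMIs in ND (137 UPM, 107 to 174) and 144 in HFD (131, 110 to 154). These cells held 66.9% of its UMIs in all kept cells, and 54.4% and 54.7% of them had an Fgfr3 UMI. In Mfap4-high cells Fgfr3 had 3 and 13 UMIs, in Ccl11-high cells 3 and 2, and in Pi16-high cells 1 and 0. Fgfr3 and Fgf18, a ligand and receptor pair known from the growth plate, thus lay in different subclusters. The small Col2a1-high subcluster, with the cartilage gene it is named for, had 1 and 19 UMIs of Fgfr3 and 1 and 30 of Fgf18. Few cells carried them in HFD: a single cell had 21 of the 30 Fgf18 UMIs, and 5 cells had 18 of the 19 Fgfr3 UMIs.

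Fgfrl1 was highest in Mfap4-high cells among the larger subclusters, with 69 UMIs in ND (70.1 UPM, 54.5 to 88.7) and 82 in HFD (62.6, 49.8 to 77.7), or 37.5% of its UMIs. Osteogenic cells stood at 18.2 and 27.2 UPM, Ccl11-high cells at 14.7 and 23.4, and Pi16-high cells at 10.9 and 3.19. The Mfap4-high interval overlapped none of these in either library.

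**Figure D3:**
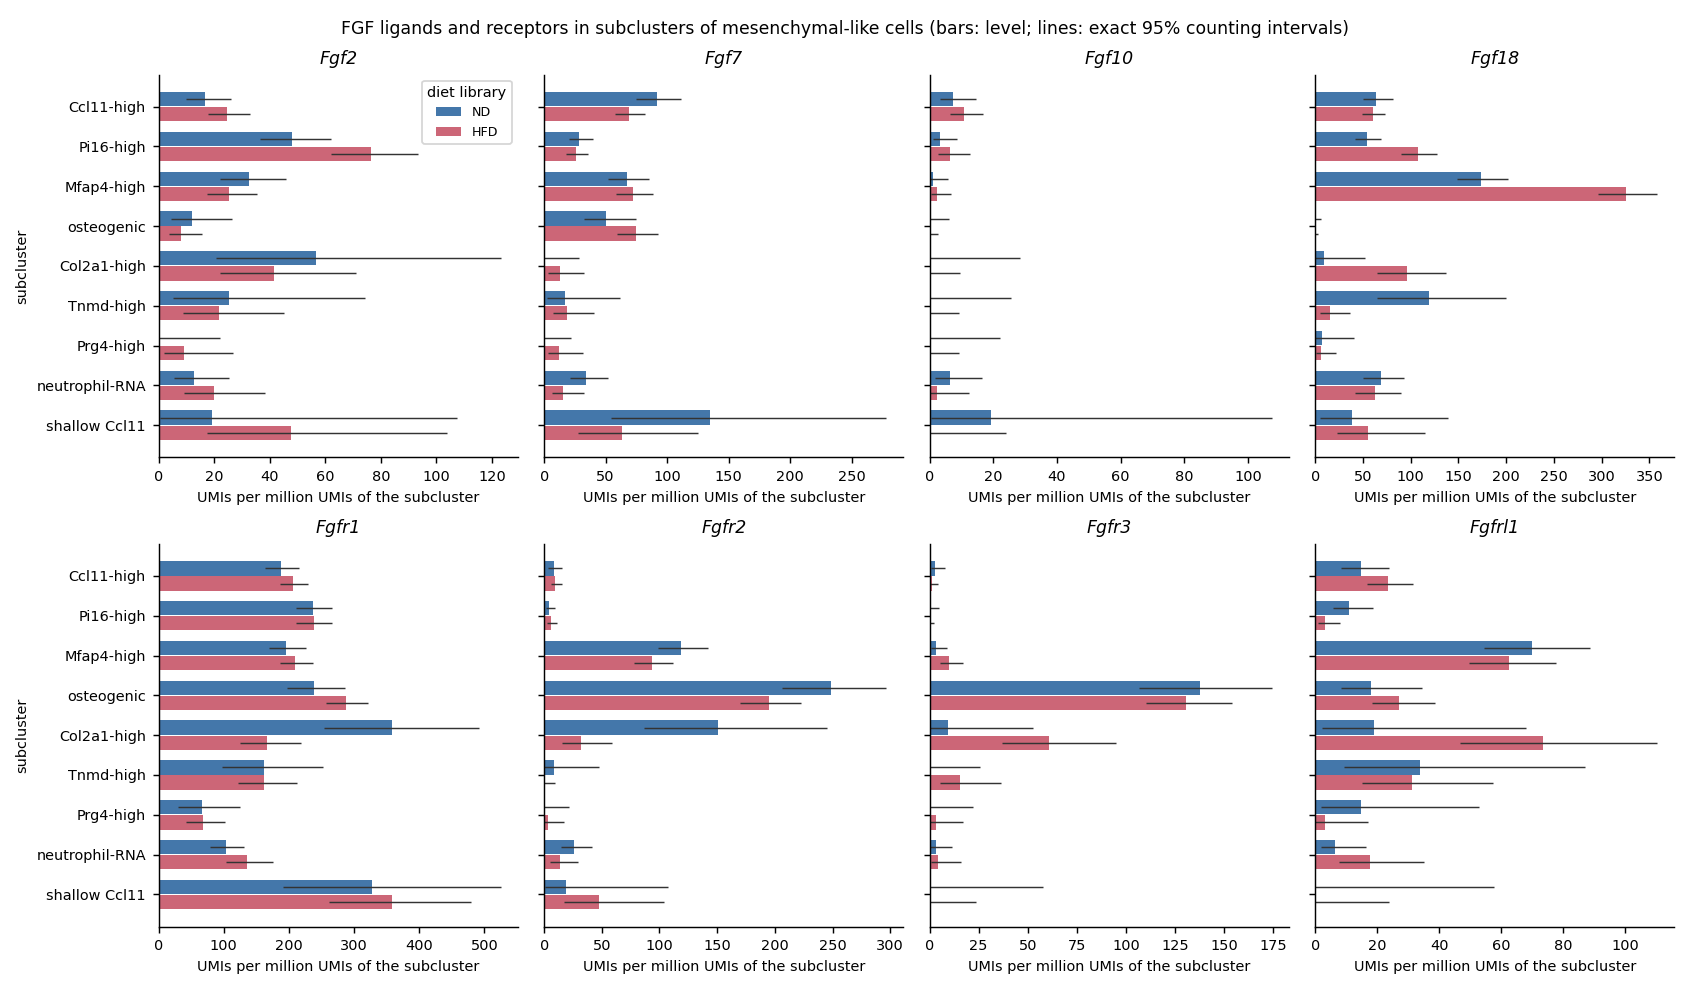
Levels of the 8 genes (x axis, UPM of the subcluster; each panel has its own scale) in the 9 subclusters of mesenchymal-like cells (y axis) of the ND library (blue) and the HFD library (red). Bars are levels and lines exact 95% counting intervals. Fgf18 peaks in Mfap4-high cells (174 and 326) and is 0 in osteogenic cells, Fgfr2 and Fgfr3 peak in osteogenic cells (249 and 195, 137 and 131), and the long lines of the small subclusters show how few UMIs lie behind them.

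The osteogenic and Mfap4-high cells were also split by Bglap, the osteocalcin gene of mature osteoblasts. Osteogenic cells of each library were split at the median Bglap share, into 29 and 28 ND cells and 64 and 64 HFD cells. Fgfr1 stood at 185 UPM in the ND cells with lower and 306 in those with higher Bglap, and at 191 and 397 in the HFD cells. The HFD intervals (157 to 230 and 345 to 455) did not overlap, and the ND intervals (138 to 243 and 237 to 388) did. Fgfr2 went from 290 to 196 in ND and from 193 to 198 in HFD, and Fgfr3 from 163 to 105 and from 133 to 128, with overlapping intervals in all 4 cases.

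Mfap4-high cells with at least 3 Bglap UMIs (18 ND and 27 HFD cells) were compared with the rest of that subcluster (69 and 95 cells). Fgfr2 stood at 224 UPM in the ND cells with and 85.6 in those below this number, and at 189 and 66.1 in HFD. Fgf18 ran the other way, with 101 against 197 in ND and 219 against 357 in HFD. The intervals of neither gene overlapped in either library. Fgfr3 had 1 and 2 UMIs in ND and 11 and 2 in HFD. Fgfrl1 stood at 54.9 against 74.9 and 60.6 against 63.2, and Fgfr1 at 190 against 198 and 219 against 207, with overlapping intervals. Genes that mark the subcluster differed between these cells as well. In ND, Mfap4 stood at 380 against 928 UPM, H19 at 21.1 against 177 and Tnmd at 76.0 against 257. In HFD they stood at 953 against 972, 199 against 579 and 33.7 against 185. Their part in the Fgfr2 and Fgf18 differences was not tested. The choice of Bglap for these splits was made after the clusters had been seen.

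Cells with UMIs of both a ligand and a receptor were also counted. Of the Mfap4-high cells, 52 in ND and 80 in HFD had an Fgf18 UMI. Fgfr1 was found in 73 and 106 of all Mfap4-high cells, with or without Fgf18, and Fgfr2 in 40 and 62. Of the 87 ND and 122 HFD Mfap4-high cells, 48 and 68 had UMIs of both Fgf18 and Fgfr1, and 21 and 40 had both Fgf18 and Fgfr2. In osteogenic cells, 27 of 57 and 57 of 128 had both Fgfr2 and Fgfr3, while 4 and 13 had Fgfr3 without Fgfr2. Of the 92 ND and 106 HFD Pi16-high cells, 15 and 31 had both Fgf2 and Fgf18. Over all mesenchymal-like cells, 229 of 410 ND and 354 of 668 HFD cells had a UMI of any of the 4 ligands together with one of Fgfr1, Fgfr2 or Fgfr3. A receptor without a ligand was seen in 120 and 194 cells, and a ligand without a receptor in 29 and 48. In osteogenic cells the receptor alone was the more frequent state, in 32 of 57 and 75 of 128 cells. These counts depend on depth and on how many cells had each gene, and a cell without a UMI need not lack the RNA. Whether genes were found together more often than independent detection would give was not tested.

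The diets were compared first over all mesenchymal-like cells. A gene was taken as past the threshold when its levels differed at least 1.5-fold and both libraries together held at least 50 UMIs. Of the 8 genes, 7 had enough UMIs, and 1 of these was past the threshold in the direction of HFD and 0 in the direction of ND. Of all 10782 genes with enough UMIs, 5.38% were at least 1.5-fold higher and 4.04% at least 1.5-fold lower in HFD, with a median log2 ratio of 0.05. The count of 1 gene is near this background.

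The gene past the threshold was Fgfr3, with 78 UMIs in ND (16.3 UPM, 12.9 to 20.3) and 186 in HFD (26.8, 23.0 to 30.9), a ratio of 1.64 (1.25 to 2.17). The osteogenic cells, where most Fgfr3 lies, made up 13.9% of ND and 19.2% of HFD mesenchymal-like cells, with intervals of 10.7 to 17.6 and 16.2 to 22.4. Within them Fgfr3 stood at 137 UPM in ND and 131 in HFD, a ratio of 0.947 (0.707 to 1.29). When each subcluster had equal weight in ND and HFD, the ratio over all mesenchymal-like cells was 1.12, and with every cell weighted alike it was 1.01. Outside the osteogenic cells Fgfr3 had 10 UMIs in 353 ND cells and 42 UMIs in 540 HFD cells, or 2.33 and 7.18 UPM. Of these 42 UMIs, 19 were in the 15 Col2a1-high cells and 13 in the Mfap4-high cells.

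Fgf18 had 366 UMIs in ND (76.4 UPM, 68.8 to 84.6) and 740 in HFD (106, 98.9 to 114), a ratio of 1.39 (1.23 to 1.58). The intervals of the levels did not overlap, but the ratio was below the threshold. Thinning every cell to 1000 UMIs gave a ratio of 2.05, with a UMI left in 18 ND and 53 HFD cells. Equal subcluster weights gave 1.54. Without the neutrophil-RNA and shallow Ccl11 subclusters the log2 ratio was 0.50, against 0.48 with them, and that of Fgfr3 was 0.64 against 0.71.

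The other genes differed by less than 1.5-fold between the libraries. Fgf2 stood at 27.3 UPM in ND and 31.5 in HFD, a ratio of 1.15 (0.924 to 1.44). For Fgf7 the levels were 53.2 and 51.6 (0.970, 0.824 to 1.14). The receptor Fgfr1 had 197 and 213 (1.08, 0.997 to 1.18), Fgfr2 had 60.1 and 55.4 (0.921, 0.789 to 1.08) and Fgfrl1 had 24.8 and 28.6 (1.15, 0.914 to 1.46). Fgf10, with 18 and 31 UMIs, stood at 3.76 and 4.46 UPM (1.17, 0.643 to 2.25). After thinning the ratio of Fgf2 was 1.50, with a UMI left in 10 ND and 25 HFD cells.

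Within the Mfap4-high and Pi16-high subclusters the library difference of Fgf18 was larger. In Mfap4-high cells it was 174 in ND and 326 in HFD, a ratio of 1.87 (1.57 to 2.25), and in Pi16-high cells 53.9 and 108, a ratio of 1.99 (1.47 to 2.74). Thinning to 1000 UMIs per cell, in a single random draw, gave ratios of 2.74 and 3.60. These rest on few cells. A thinned Fgf18 UMI was left in 8 ND and 28 HFD Mfap4-high cells and in 3 and 13 Pi16-high cells. In Ccl11-high cells, by contrast, the ratio was 0.938 (0.689 to 1.29). Without the 5 cells of each library that had the most Fgf18, the log2 ratio was 0.92 in Mfap4-high cells, against 0.90 with them, and 0.95 in Pi16-high cells, against 0.99. When the subclusters were drawn more coarsely, so that most Pi16-high and Ccl11-high cells fell together, the ratio of the cluster that held the Pi16-high cells was 1.39. The neutrophil markers summed to 1498 UPM in ND and 2083 in HFD Mfap4-high cells and to 2466 and 921 in Pi16-high cells. In Mfap4-high cells the NK markers summed to 3.05 and 67.2 UPM and the T cell markers to 4.06 and 34.3, and H19, a leading gene of the subcluster, stood at 139 and 493. In Pi16-high cells the NK markers summed to 41.2 and 2.39 and the macrophage/monocyte markers to 52.2 and 14.4. Their part in the ratios was not tested. In the 8 and 35 Tnmd-high cells Fgf18 had 14 and 5 UMIs (119 and 15.6 UPM), too few for the threshold. The ratio was 0.140 (0.0370 to 0.386), and the 14 ND UMIs lay in 3 cells. In the neutrophil-RNA subcluster the ratio was 0.909 (0.541 to 1.49), from 43 and 28 UMIs. In Col2a1-high cells it was 6.90 (1.69 to 415), from 1 and 30 UMIs.

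Fgf2 was past the threshold in Pi16-high cells, at 48.0 UPM in ND and 76.6 in HFD, a ratio of 1.59 (1.14 to 2.26). With the coarser subclusters and with a mean over cells the ratio was 1.43 in both cases, below the threshold. In Mfap4-high cells its ratio was 0.774 (0.462 to 1.30). Fgfrl1 was past it in Ccl11-high cells, with 16 and 41 UMIs and a ratio of 1.56, but the interval (0.874 to 3.04) included 1. In osteogenic cells Fgfr2 was lower in HFD by less than the threshold, with a ratio of 0.783 (0.626 to 0.987), and its ratio in Mfap4-high cells was 0.790 (0.608 to 1.03). Fgf7 in Ccl11-high cells had a ratio of 0.751 (0.572 to 0.990), and in osteogenic cells of 1.45 (0.931 to 2.40), or 2.99 after thinning. The thinned value rests on 2 ND and 14 HFD osteogenic cells with an Fgf7 UMI. Neutrophil markers summed to 1583 and 6952 UPM in osteogenic cells and to 1466 and 941 in Ccl11-high cells. Pericyte/smooth muscle markers summed to 392 and 807 in osteogenic cells and to 59.7 and 105 in Ccl11-high cells, and macrophage/monocyte markers to 113 and 29.9 and to 184 and 13.7. Their part in these ratios was not tested.

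Counted over the genes of the 8 that had enough UMIs, 1 of 6 was past the threshold towards HFD in Mfap4-high cells, where 6.55% of 5708 genes were, 2 of 4 in Pi16-high cells (5.98% of 5690), 1 of 5 in Ccl11-high cells (7.47% of 6236) and 0 of 4 in osteogenic cells (8.03% of 4335). Towards ND, 0 of these 6, 4, 5 and 4 genes were past it, where 4.54%, 4.43%, 4.44% and 5.44% of all genes were. The rest had too few UMIs, among them Fgfrl1 in Pi16-high cells, with 13 UMIs in ND and 4 in HFD. These counts cover the 4 larger subclusters only. In the 8 and 15 Col2a1-high cells Fgfr1 was past the threshold towards ND, at 358 and 166 UPM. The ratio was 0.463 (0.300 to 0.725), from 38 and 52 UMIs. Of the 38 ND UMIs, 19 lay in a single cell.

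**Figure D4:**
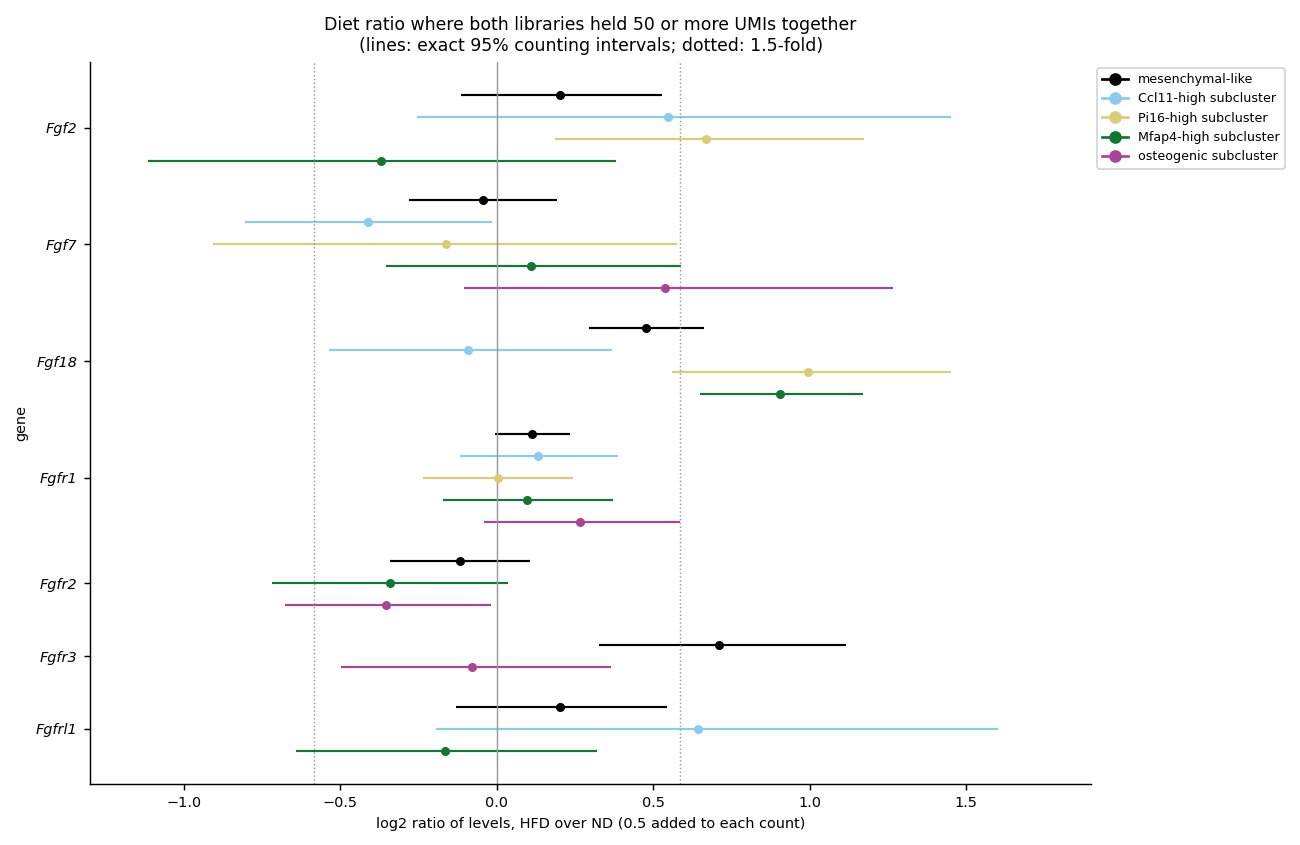
log2 ratio of levels, HFD over ND (x axis), of each gene (y axis) in all mesenchymal-like cells (black) and in the 4 larger subclusters (colours), where both libraries together held at least 50 UMIs. Points are ratios, lines exact 95% counting intervals and dotted lines 1.5-fold. Fgf18 lies past 1.5-fold in Mfap4-high and Pi16-high cells (0.90 and 0.99) and near 0 in Ccl11-high cells, and Fgfr3 lies past it over all mesenchymal-like cells (0.71) but not in osteogenic cells (-0.08).

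Over all kept cells the ratios were larger, with Fgf18 at 7.73 UPM in ND and 15.5 in HFD and Fgfr3 at 1.93 and 4.53. Mesenchymal-like cells made up 6.80% of kept cells in ND and 10.7% in HFD, and from such totals more cells of a class and more RNA per cell cannot be told apart.

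In macrophage/monocyte-like cells Fgfr1 had a ratio below the threshold, at 50.6 and 46.3 UPM. The cluster led by Ms4a6c had 199 ND and 274 HFD cells and the one led by Ccl2 had 112 and 36, while the C1qa-led cluster, which carries the Fgfr1 UMIs, had 172 and 165 cells.

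A list of 70 further genes of the pathway was examined in the same way. Over mesenchymal-like cells 44 had enough UMIs, of which 4 were at least 1.5-fold higher and 1 at least 1.5-fold lower in HFD, and the median log2 ratio was 0.14 against 0.05 for all genes. Of all genes, 5.38% were higher and 4.04% lower by this threshold. These values describe the list, and whether it stands apart from other genes was not tested.

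Of the 18 other ligands only Fgf1, Fgf9 and Fgf16 had at least 50 UMIs. Fgf1 stood at 9.60 and 10.8 UPM and Fgf9 at 6.89 and 6.33. Fgf16 was the one gene past the threshold towards ND, with 39 UMIs (8.14 UPM) in ND and 30 (4.31) in HFD, a ratio of 0.532 (0.318 to 0.876). Ccl11-high cells held 25 of the 39 ND UMIs and 11 of the 30 HFD UMIs. Among Fgfr4 and the klotho co-receptors, which serve the endocrine FGFs, none had enough UMIs: Fgfr4 had 0 and 5, Kl had 0 and 2, and Klb had 0 in both libraries.

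Of the 12 heparan sulfate proteoglycans and ligand carriers, 9 had enough UMIs and 1 was past the threshold. Syndecan 4 (Sdc4) had levels of 535 and 536 UPM, syndecan 2 (Sdc2) 364 and 401, and perlecan (Hspg2) 196 and 213. Sdc3 was the one past the threshold, with 152 UMIs in ND (31.7 UPM) and 402 in HFD (57.8), a ratio of 1.82 (1.51 to 2.21). It was also higher in the osteogenic cells, at 127 and 190 UPM, with a ratio of 1.48 (1.12 to 2.01) below the threshold. Of the 11 heparan sulfate enzymes, 9 had enough UMIs and 0 were past the threshold. The endosulfatases Sulf1 and Sulf2, which trim heparan sulfate, stood at 93.7 and 106 and at 66.4 and 54.4, and the polymerase gene Ext1 at 40.1 and 46.6. Of the 9 adaptors, 8 had enough UMIs and 0 were past it. Grb2 stood at 71.0 and 66.9, Ptpn11 at 55.1 and 63.9 and Shc1 at 44.5 and 50.8 UPM.

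The feedback inhibitors and response genes, which are induced by FGF and other receptor tyrosine kinases, had 15 of 17 members with enough UMIs, of which 3 were at least 1.5-fold higher in HFD and 0 lower, against 5.38% and 4.04% of all genes. The median log2 ratio was 0.28, against 0.05 for all genes. The 3 were the sprouty gene Spry1, with 153 UMIs in ND (31.9 UPM) and 431 in HFD (62.0) and a ratio of 1.94 (1.61 to 2.35), the transcription factor gene Etv4, with 11 and 41 UMIs and a ratio of 2.49 (1.30 to 5.54), and Spred3, with 16 and 36 UMIs and a ratio of 1.52 (0.839 to 2.99). Spry1 was higher in the Ccl11-high cells, with 83 UMIs (76.2 UPM) in ND and 254 (145) in HFD. In Mfap4-high cells, where Fgf18 was higher in HFD, it stood at 24.4 and 20.6. The other 12 with enough UMIs differed by less than the threshold, in both directions. Spry2 had levels of 96.4 and 97.8, Flrt2 of 80.8 and 97.2 and Ccnd1 of 93.7 and 79.8 UPM. Dusp6, a phosphatase gene that limits ERK, was lower in HFD by less than the threshold, at 42.6 and 31.4, a ratio of 0.736 (0.606 to 0.896). Over all kept cells it had 3008 and 2460 UMIs, and neutrophil markers summed to 18014 and 8295 UPM in mesenchymal-like cells. The part of RNA from other cells in this ratio was not tested.

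In Mfap4-high cells 29 genes of the list had enough UMIs, of which 3 were past the threshold towards HFD and 2 towards ND, against 6.55% and 4.54% of all genes. Towards HFD, Etv1 had 18 and 57 UMIs there (ratio 2.33, 1.38 to 4.29), Spred2, another inhibitor of the ERK pathway, had 26 and 55 (1.57, 0.980 to 2.64) and the heparan sulfate sulfotransferase gene Hs2st1 had 20 and 44 (1.63, 0.954 to 2.96). Towards ND, Spry4 had 32 and 18 (0.428, 0.223 to 0.776) and Dusp6 had 39 and 34 (0.656, 0.401 to 1.06). In osteogenic cells 2 of 20 were past it towards HFD and 0 towards ND, against 8.03% and 5.44% of all genes. They were Spry2, with 12 and 52 UMIs and a ratio of 1.88 (1.02 to 4.00), and Spred1, with 24 and 86 UMIs and a ratio of 1.58 (1.01 to 2.64).

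**Figure D5:**
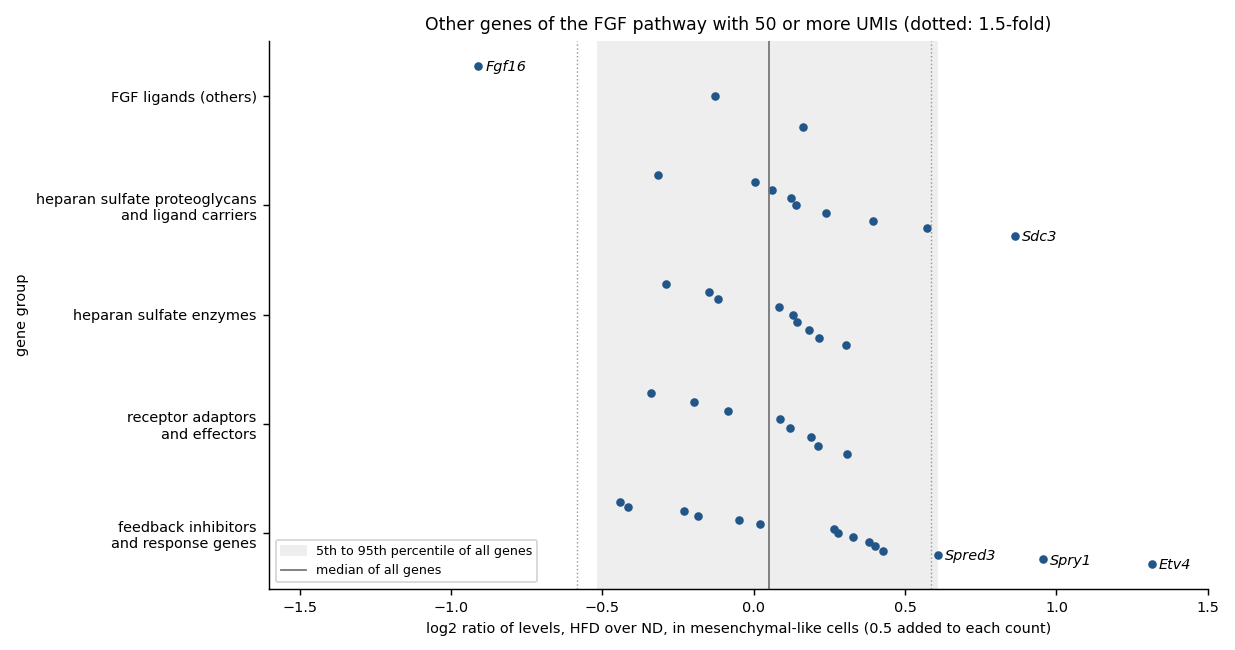
log2 ratio of levels, HFD over ND, in mesenchymal-like cells (x axis) for the 44 genes of the pathway list with at least 50 UMIs, by gene group (y axis). Each point is a gene, dotted lines mark 1.5-fold, the grey band spans the 5th to the 95th percentile of all 10782 genes and the grey line their median (0.05). Etv4, Spry1, Sdc3 and Spred3 lie past 1.5-fold towards HFD and Fgf16 towards ND, and the other 39 genes lie between the dotted lines.

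The genes whose pattern was most like that of each of the 8 were found from 33 points, each a cell class or mesenchymal subcluster of 1 library with at least 20 cells there, among 11881 genes with at least 200 UMIs. The measure was Pearson's r of log2(UPM + 10), and the points share their libraries and the split between mesenchymal and other cells, so that high values are common. Fgf2 was most like Sema3c (0.95), Ddr2 (0.93) and Axl (0.93). For Fgf7 the genes were Bicc1, Mrc2 and Adamts2 (each 0.97), and for Fgf18 Ccn3 (0.94), Cfb (0.91) and Chrdl1 (0.91). Fgfr1 was most like Itgb5 (0.98), Myof (0.97) and Dpysl3 (0.97). Fgfr2 was most like Bglap (0.96), Dlx6 (0.96) and Wnt16 (0.94), and Fgfr3 like Alpl (0.91), Plxna2 (0.90) and Shf (0.86). For Fgfrl1 the values were lower, with Galr2 (0.85), Tceal1 (0.85) and Shisa4 (0.84). Among the 8 genes themselves r was 0.87 for Fgf2 and Fgf18, 0.67 for Fgfr2 and Fgfr3 and -0.09 for Fgf18 and Fgfr3.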

How the data were processed

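Single-cell RNA sequencing of periosteal cells was measured in 1 ND and 1 HFD library. The authors deposited raw UMI counts per gene and barcode, made with Cell Ranger 6.0.1 on mm10 per the submitters' processing notes and the matrix header, and no normalization had been applied. The libraries held 48558889 and 49940976 UMIs. The annotation and the strand setting of the counting are not given in the sources used. Diet labels set the groups.

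The cell filter (over 500 and below 8000 genes, mitochondrial UMIs below 20%) was that of the study. Both libraries were merged and clustered in Seurat 5.3.0 (sctransform 0.4.2, R 4.3.3) with SCTransform (cell cycle scores for S and G2M regressed), 30 components and Louvain resolution 0.5, for all cells and again for mesenchymal-like cells. The 29 FGF family genes listed were left out of the clustering genes. Naming a cluster needed 3 markers, each with 20 or more UMIs and a level at least 2-fold the median of all clusters. The name was withheld when the 10 leading genes held more markers of another type than of its own. For classes it was also withheld when the first leading gene marked only another class. A shallow cluster with no own marker among the 10 leading genes stayed unnamed as well. Classes are rebuilt here and need not be those of the study, and subclusters were labelled after they had been seen. Doublets were kept. The automatic threshold of Scrublet (scanpy 1.11.5) marked 0.149% of ND and 0.370% of HFD cells and was not used, and the top 5% of scores in each library were removed in an alternative.

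Levels were summed UMIs per 1000000 UMIs of a class with exact Poisson intervals, and shares had exact Clopper-Pearson intervals (95%). A count of 0 was taken to allow 3 counts. Ratios had 0.5 added to each count and exact conditional binomial intervals. With 1 library per diet no test was made. Cells were thinned to 1000 UMIs without replacement, which left out 55 ND and 51 HFD cells. UMIs were not corrected for free RNA. The ratio and interval computation was tested on simulated data.

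All 8 genes are named in every class. Of each pathway group the 3 genes with the most UMIs in mesenchymal-like cells and every gene past the threshold are named, and for each of the 8 genes with at least 100 UMIs the 3 genes most like it. Fgf1 in pericyte/smooth muscle-like cells, Fgfr4, Kl and Klb, Dusp6, and the genes given for Mfap4-high and osteogenic cells fall outside this rule and were chosen after their values were seen. The members and lists were chosen with earlier results of these data known. Gene positions are RefSeq models of GRCm38. Computation used scipy 1.17.1, matplotlib 3.10.9, numpy 2.4.6 and pandas 2.3.3 under Python 3.11.15.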

Additional observations from a re-analysis of the deposited data

Results flagged for a closer look

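Barcodes outside the filter on genes and mitochondrial UMIs, which the comparisons do not use, held 20 UMIs of the 8 genes in ND (285 barcodes) and 32 in HFD (412 barcodes), more than the 3 counts that a count of 0 allows. Of these, 17 and 19 were Fgfr1, or 37.6 and 35.9 UMIs per 1000000 UMIs of those barcodes. No other result was marked, since groups of 1 library allow neither a check for outlying samples nor a test of a difference between groups.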

How the results depend on the processing

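Of the main ratios and counts, 135 values under the alternatives stayed within the counting interval or within 1.5 times of the reported one, 14 moved and no value past the threshold changed sign. Below the threshold, thinning turned the log2 ratio of Fgf10 from 0.23 to -0.21 and that of Fgfrl1 from 0.20 to -0.0099. Over mesenchymal-like cells, thinning gave log2 ratios of 0.59 (Fgf2), 1.03 (Fgf18), 0.26 (Fgfr1) and 0.14 (Fgfr3), equal subcluster weights gave -0.40 (Fgfr2) and 0.16 (Fgfr3), and a mean over cells gave 0.0092 (Fgfr3) and 0 of the 8 genes past 1.5-fold. At 200 UMIs or more, 2 genes of the pathway list were past it, against 5. For Fgf18, thinning gave 1.45 in Mfap4-high and 1.85 in Pi16-high cells, and the coarser subclusters (resolution 0.2) gave 0.47 in the cluster of the Pi16-high cells. In osteogenic cells a mean over cells gave -0.54 for Fgfr3, and thinning gave 1.58 for Fgf7. Leaving out the 5 cells with the most Fgfr3 in each library turned its osteogenic log2 ratio from -0.08 to 0.21, neither past the threshold. The cause of these shifts was not tested. Thinning was a single random draw that left few cells with a UMI. For Fgf10 these were 2 ND and 3 HFD mesenchymal-like cells, and for Fgf18 3 and 13 Pi16-high cells. Of the levels under the alternatives, 62 moved and 258 did not.

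The alternatives without the neutrophil-RNA and shallow subclusters and without the cells with the most UMIs were chosen after seeing the data. The number of UMIs limits Fgf10 most, and the number of cells the small subclusters. No paired analysis was possible because the cells of a diet are pooled in 1 library and carry no replicate number.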
